A study of Mus musculus with 3 samples.

Results

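The genes described here encode kinases, ubiquitin ligases and adaptors of Toll-like receptor signalling. Most act on the path from the MyD88 adaptor to the kinase TAK1, while Irak3 restrains it and Traf3 serves the branch of the adaptor TRIF. The genes were chosen by symbol: Irak1, Irak2, Irak3, Irak4, Traf3, Traf6, Map3k7, Tab1, Tab2 and Tab3. All 10 were found, 10 of 55536 annotated genes, and the rule itself uses no measured value. The libraries came from primary macrophages of C57BL/6J mice, grown from bone marrow, exposed to lipid A at 100 ng/ml for 25 min, and separated so that the cytosolic RNA was kept. Ribosomal RNA was depleted from 1 µg of RNA and 3 libraries were sequenced, numbered as biological replicates 1, 2 and 3 of a single group. The labels tie all 3 to a single donor record and do not say whether they came from separate mice, and age and sex were not collected. No unstimulated group was analysed here, so the values describe levels under stimulation and not a response to it.

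Lipid A, the membrane anchor of bacterial lipopolysaccharide, is sensed by TLR4 with CD14 and MD-2. In the MyD88 branch the kinase IRAK4 joins the receptor complex first and activates IRAK1 and IRAK2, which engage the ubiquitin ligase TRAF6. TRAF6 builds polyubiquitin chains that TAB2 and TAB3 bind, and this brings the kinase TAK1 (Map3k7) and its activator TAB1 into position to switch on the IκB kinases and the MAP kinase kinases. IRAK3, also called IRAK-M, restrains the IRAK step, and TRAF3 serves the TRIF branch that leads to the kinase TBK1 and type I interferon.

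Levels are given as TPM, a count divided by transcript length and scaled so that a whole library has a fixed sum. The 3 libraries held 53055764, 43620362 and 38623777 expected counts. The floor of counting was taken as 3 counts, which corresponded to 0.0567, 0.0689 and 0.0777 CPM (counts scaled to library size). Calling a gene detected used another limit, 1 TPM or more in every library, so a gene not detected can still hold reads. Nuclear protein-coding genes took 22.7, 22.9 and 29.8% of the deposited gene TPM, so a deposited TPM in replicate 3 stands higher for most genes: 90.0% of the 9084 detected protein-coding genes were highest there. The nuclear transcript Malat1 stood at 392, 1144 and 374 TPM. All 8 macrophage markers were detected in every library, with Lyz2 at 4141, 4025 and 6668 TPM. T and NK cell markers Cd3e, Cd3d, Cd8a and Ncr1 were at 0.03 TPM or below, although Cd4 reached 24.4, 20.9 and 25.2 TPM. Of the neutrophil and precursor list, S100a8 was detected at 9.60, 14.93 and 12.36 TPM and S100a9 at 15.94, 27.35 and 17.35 TPM. Mpo was at 0.19, 0.57 and 0.14 TPM, Elane at 0.15, 0.36 and 0.15 TPM, and Ly6g at most 0.03 TPM. No B cell, erythroid or stromal marker was detected. The part of other cell types in the levels below was not tested, and in bulk RNA fewer cells of a type and less RNA per cell cannot be told apart.

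Several of these transcripts are textbook targets of microRNAs induced through the same receptors, and their target sites are the first sequences shown. The mature forms, from RefSeq (GRCm38.p6, the same assembly as mm10), are printed with the seed, bases 2 to 8, in capitals. The miR-146a-5p sequence lies on chromosome 11 from 43374435 to 43374456 on the minus strand, and miR-155-5p lies on chromosome 16 from 84714143 to 84714165 on the plus strand. No level of either microRNA was used here.
mmu-miR-146a-5p: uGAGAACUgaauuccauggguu
mmu-miR-155-5p: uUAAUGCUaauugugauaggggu
The reverse complement of each seed, AGTTCTC for miR-146a-5p and AGCATTA for miR-155-5p, was searched on the sense strand of the 3′ UTR of each gene's most abundant transcript.

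The miR-146a-5p seed match occurred 4 times in the 3′ UTR of Traf6, 2 times in that of Irak1 and 2 times in that of Irak2, and not in the other 7. Irak1 and Traf6 are the classic targets of this microRNA. The 2 Irak1 matches began at bases 40 and 56 of 1526, close to the stop codon and to each other. Those of Irak2 began at bases 353 and 486 of 1246. In Traf6 they began at bases 460, 524, 1336 and 3860 of 4170. Each is printed with its flanks and the match in capitals.
Irak1, first match: tcagaggtcaaAGTTCTCatgcttggaag
Irak1, next match: tcatgcttggaAGTTCTCatagtgtgcaa
Irak2, first match: ccaaacctcttAGTTCTCcacaacggaca
Irak2, next match: gtgtctccgcaAGTTCTCaagttcaggac
Traf6, base 460: ctctggtgttgAGTTCTCatttagttgac
Traf6, base 524: tggaaggcttaAGTTCTCaagtactccct
Traf6, base 1336: ctttggagtctAGTTCTCagggagcccta
Traf6, base 3860: tttgctactgcAGTTCTCaaacatggaag
A single miR-155-5p seed match occurred in each of Traf3, at base 4903 of 5088, and Tab2, at base 737 of 1782. Tab2 is a known target of miR-155.
Traf3: catctcctgatAGCATTAtgatgtttcgt
Tab2: ataaggtagaaAGCATTAatgaaatgaaa
Among 9066 detected protein-coding genes, taking the longest 3′ UTR of each, 12.5% held at least 1 miR-146a-5p match and 9.38% at least 1 miR-155-5p match. The median length of those 3′ UTRs was 1164 bases, while those of the 10 genes ran from 1067 to 5088 bases, and longer sequences hold more chance matches. A match is a description of letters, not of binding.

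**Figure D1:**
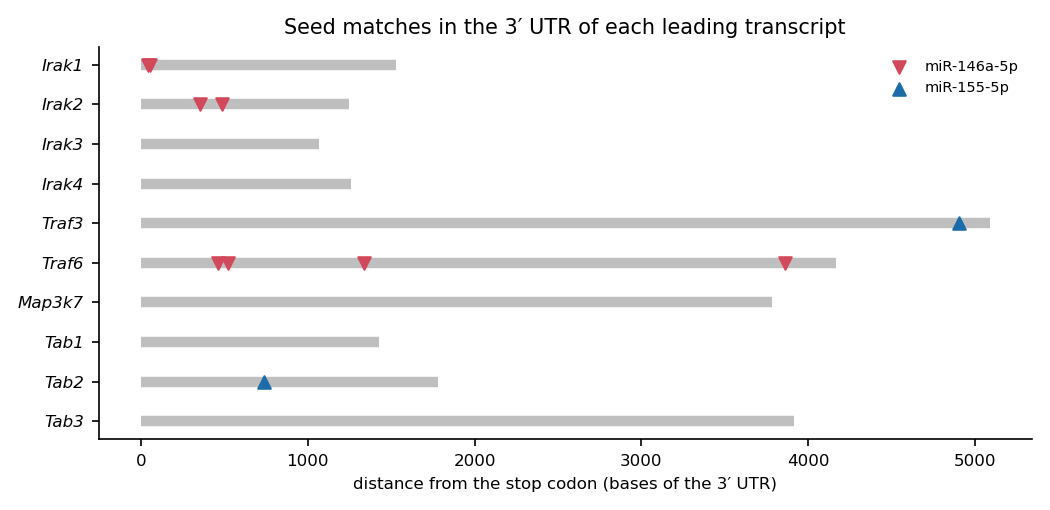
Seed matches along the 3′ UTR of the most abundant transcript of each gene, with distance from the stop codon in bases on the x axis, grey bars for the length of the 3′ UTR, downward triangles for miR-146a-5p and upward triangles for miR-155-5p. The 4 matches of Traf6 are spread from base 460 to base 3860, while the 2 of Irak1 lie near the stop codon and overlap in the drawing.

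All 10 genes were detected, meaning 1 TPM or more in every library, beside 41.3% of the 22015 nuclear protein-coding genes. In the alignment-free tables, in which reads were assigned to transcripts directly, 8 of the 10 reached that limit, beside 30.2%, and Tab1 and Tab3 did not. Tab1 stood there at 1.06, 0.708 and 0.724 TPM and Tab3 at 0.994, 0.581 and 0.694. In the gene tables at 0.5 TPM the count was again 10, against 44.8%, and at 5 TPM it was 5, against 24.6%. Their mean levels ran from 2.37 TPM for Tab3 to 23.9 TPM for Tab2. The median of the 10 means was 5.68 TPM, below the median of 7.79 TPM over the detected protein-coding genes. Each gene rested on 541 to 8833 expected counts in a library, far above the floor of 3 counts. Part of the TPM of Traf3 and Tab3 nonetheless lay on short transcripts with a small part of their reads, described below.

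Among the IRAK genes, Irak4 encodes the first kinase of the cascade and lies on chromosome 15 (mm10) from 94543643 to 94581815, plus strand. Irak4 stood at 8.70, 8.80 and 12.4 TPM in replicates 1, 2 and 3, from 2364, 1786 and 1925 expected counts. Replicates 1 and 2 were nearly equal and replicate 3 higher, as for most genes on this scale. Over nuclear protein-coding genes alone, a rescaling that divides out the differing share of all other RNA, Irak4 was at 38.4, 38.5 and 41.8 TPM. The annotated exons of Irak4 share 395 bases with those of Twf1, an actin-binding protein gene on the opposite strand at 23.5, 24.5 and 32.8 TPM. No source used here says whether the counting used strand, so reads over those bases cannot be told apart.

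Irak1, the kinase that IRAK4 activates and that carries the signal to TRAF6, lies on chromosome X from 74013914 to 74023918 on the minus strand. Its level was 14.4, 15.7 and 18.7 TPM, the highest of the IRAK genes in every library. On the protein-coding scale it was 63.5, 68.8 and 62.9 TPM, with replicate 2 highest and replicate 3 lowest. The microRNA genes annotated inside Irak1 on the same strand, Mir5132 and Mir718, had 0 counts in all 3 libraries. They share 71 and 70 bases with Irak1 exons, where reads can be counted for Irak1. The 0 counts therefore do not show whether they were expressed.

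Irak2, a kinase known for sustaining the later response, lies on chromosome 6 from 113638467 to 113695026, plus strand. It was at 6.96, 7.93 and 10.02 TPM from 1811, 1619 and 1606 expected counts, and at 30.7, 34.7 and 33.7 TPM over protein-coding genes. Replicate 1 was the lowest on both scales. The gene model Gm43963, on the opposite strand, shares 196 exonic bases with Irak2 and held 44.2, 81.4 and 34.6 counts.

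Irak3, the inhibitory member, lies on chromosome 10 from 120141648 to 120202130, minus strand. It was the lowest of the family at 4.09, 4.19 and 5.93 TPM, and at 18.0, 18.3 and 19.9 TPM over protein-coding genes. Its 5′ exons share 192 bases with Tmbim4, an opposite-strand gene at 27.04, 25.71 and 37.57 TPM, so part of its count is uncertain for the same reason.

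Irak1 held 41.6% ± 1.65 (SD, n = 3) of the summed TPM of the IRAK genes. Irak4 held 25.3% ± 1.20 and Irak2 held 21.1% ± 0.649, while Irak3 held 11.98, 11.44 and 12.59% in the 3 libraries. Irak1 was therefore 1.65 ± 0.140 times as abundant as Irak4, and Irak4 was 2.11 ± 0.0168 times as abundant as the inhibitory Irak3. The alignment-free tables gave the same order of mean shares, with 39.7% for Irak1, 26.2% for Irak4, 22.9% for Irak2 and 11.1% for Irak3. In replicate 2 they put Irak2, at 25.1%, above Irak4, at 24.6%, so that pair kept its order in 2 of the 3 libraries.

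Of the TRAF genes, Traf6 encodes the ligase of the MyD88 branch and lies on chromosome 2 from 101678429 to 101701669, plus strand. Its level was 4.36, 4.69 and 5.81 TPM, from 2578, 2056 and 1908 expected counts. Traf3, the TRIF branch adaptor, lies on chromosome 12 from 111166370 to 111267153, plus strand, and was at 3.62, 3.27 and 4.81 TPM. On the protein-coding scale Traf6 was at 19.2, 20.5 and 19.5 TPM and Traf3 at 16.0, 14.3 and 16.2 TPM, without overlap.

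Which TRAF gene was higher depended on the quantification. In the deposited gene table Traf6 exceeded Traf3 in all 3 libraries, with a ratio of 1.28 ± 0.132 (SD, n = 3). In the alignment-free tables the ratio was 0.833, 1.11 and 0.992, with a mean of 0.979 ± 0.139, so the order differed between libraries. A short fragment of Traf3, described below, takes a large part of its TPM in both quantifications, and its part in this order was not tested.

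Map3k7 encodes TAK1, the kinase on which the branch converges, and lies on chromosome 4 from 31964097 to 32023467, plus strand. Its level was 5.75, 6.22 and 7.27 TPM, from 2950, 2424 and 2315 expected counts, and 25.4, 27.2 and 24.4 TPM over protein-coding genes. The library that was highest changed with the scale, from replicate 3 to replicate 2.

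Tab2, one of the ubiquitin-binding subunits, lies on chromosome 10 from 7905653 to 7956230, minus strand, and was the most abundant of the 10 genes in every library. It was at 21.1, 20.3 and 30.4 TPM, from 8833, 6538 and 7301 expected counts. Tab3, the other ubiquitin-binding subunit, lies on chromosome X from 85574022 to 85634469, plus strand, and was the least abundant at 2.07, 2.19 and 2.85 TPM. Tab1, the subunit that promotes TAK1 autophosphorylation, lies on chromosome 15 from 80133127 to 80161707, plus strand, and was at 2.32, 2.62 and 3.45 TPM from 622, 552 and 541 expected counts.

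Tab2 made up 82.2% ± 1.13 (SD, n = 3) of the summed TPM of the TAB genes, with Tab1 at 9.64% ± 0.694 and Tab3 at 8.20% ± 0.483. The alignment-free share of Tab2 was also 82.2%, ± 0.796. Tab2 exceeded its close relative Tab3 by 10.05 ± 0.711 times and Tab1 by 8.56 ± 0.705 times. It exceeded Map3k7 itself by 3.71 ± 0.461 times in the gene table and by 2.69 ± 0.365 times in the alignment-free tables. Within the kinase and its subunits, Map3k7 held 18.3% ± 1.67 of the TPM in the gene table and 23.5% ± 2.28 in the alignment-free tables.

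By mean deposited TPM the order was Tab2 at 23.9, Irak1 at 16.3, Irak4 at 9.98, Irak2 at 8.30, Map3k7 at 6.41, Traf6 at 4.95, Irak3 at 4.74, Traf3 at 3.90, Tab1 at 2.80 and Tab3 at 2.37. Of the 9 neighbouring pairs, 8 kept this order in all 3 libraries, the exception being Traf6 and Irak3, which changed places in replicate 3. Only Tab2 against Irak1 and Irak1 against Irak4 had ranges over libraries that did not overlap. On the protein-coding scale 8 of the 9 pairs were separate, and Traf6 and Irak3, at 19.8 and 18.8 TPM, were again the exception. The Traf3 level includes the short fragment Traf3-204, which held 31.2, 27.5 and 28.3% of its alignment-based TPM. The part of that fragment in the place of Traf3, as in its separation from Tab1, was not tested. The ratio of Traf6 to Irak3 ran from 0.980 to 1.12 over the libraries. In the alignment-free tables the most and least abundant genes were the same, and Traf3 moved above Traf6 and Irak3. No p-value is given for any pair, since an exact sign-flip permutation over 3 libraries cannot go below 0.25.

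**Figure D2:**
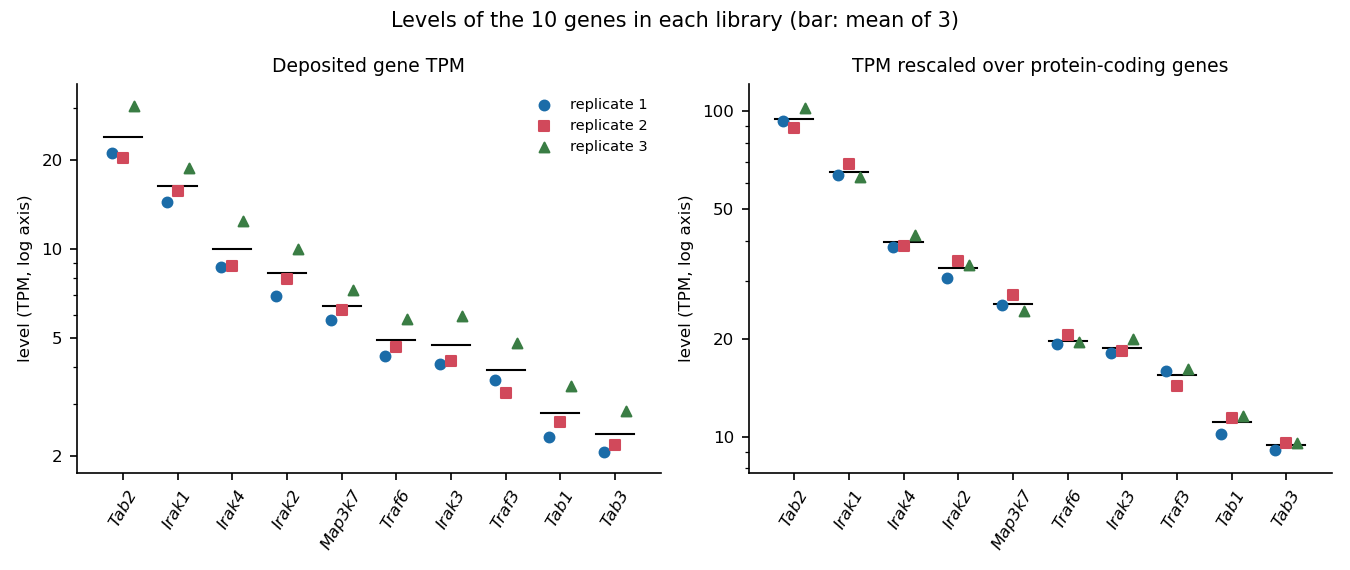
Level of each gene in each library on a log axis, in deposited TPM (left) and in TPM rescaled over nuclear protein-coding genes (right), with a symbol for each replicate and a bar for the mean of 3. Replicate 3 is the highest point of all 10 genes on the left and of 5 on the right, where 8 of the 9 neighbouring pairs separate and Traf6 and Irak3 do not.

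Which library was highest depended on the scale. All 10 genes were highest in replicate 3 by deposited TPM, beside 90.0% of detected genes, and all 10 were highest in replicate 1 by alignment-free TPM, beside 98.1%. Rescaled over protein-coding genes, 5 of the 10 were highest in replicate 3, beside 32.6%. The counts on the first pair of scales lie near their backgrounds and are read no further. Differences between libraries were taken from counts scaled with TMM factors, given as CPM or log2 CPM.

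On that scale none of the 10 genes differed by more than 1.5-fold between any 2 libraries. Among the 10348 genes that averaged at least 100 counts, 9.31% did, so 0 of 10 lies near that share and is read no further. From replicate 1 to replicate 2 the background was 3.29% upward and 1.38% downward. From replicate 1 to 3 it was 1.56% upward and 1.09% downward, and from replicate 2 to 3 it was 3.49% upward and 4.40% downward, each beside 0 of the 10. The widest gap was that of Tab2, at 171.5, 148.9 and 185.6 CPM, which was 1.25-fold higher in replicate 3 than in replicate 2. Traf3 gave the widest gap between replicates 1 and 2, at 35.2 and 30.4 CPM, a 1.16-fold difference. Irak2 gave the widest between replicates 1 and 3, at 35.2 and 40.9 CPM, also 1.16-fold.

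The smallest spread was that of Irak1, at 87.4, 85.5 and 85.0 CPM, with an SD of 0.02 on the log2 scale, and 96.9% of the 10348 genes had an SD at least as large. Map3k7 and Traf6 followed, both with an SD of 0.05. The largest SD was 0.16 for Tab2. The 10 genes had a median SD of 0.11 on the log2 CPM scale, and so did the 10348. Replicate 2 was the lowest library for 7 of the 10 genes, beside 50.8% of the 10348, and replicate 3 the highest for 8, beside 36.8%. The median difference of replicate 3 over replicate 2 was 0.17 for the 10 and 0.05 for all (log2 CPM). All single deviations from a gene's mean lay between the 5th and the 95th percentile of all genes in the same library.

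**Figure D3:**
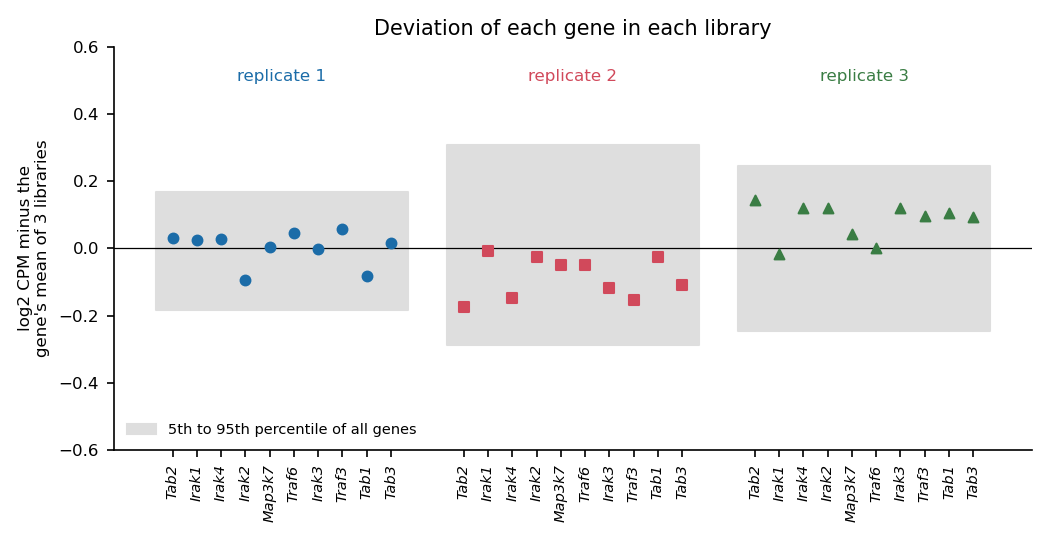
Deviation of each gene's log2 CPM from its mean over the 3 libraries, with a block for each replicate and genes in order of level along the x axis. Grey boxes span the 5th to the 95th percentile of 10348 genes, and all points lie inside them, the lowest being Tab2 in replicate 2 at -0.17.

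Transcript shares were taken from the alignment-free tables as the percent of a gene's TPM on each annotated transcript. The 10 genes have 68 annotated transcripts, of which 37 are protein-coding and 15 retain an intron, and 19 held a mean share of 10% or more. For all 10 the most abundant transcript was the same in the alignment-free and in the alignment-based tables, although its share often was not. A TPM share divides by length, so a short fragment with few reads can take a large share.

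In 4 of the genes a single coding transcript carried 80.2% or more of the TPM in every library. Traf6-201, the only coding transcript of Traf6, held 95.2, 86.7 and 91.4%. Tab1-201, likewise the only coding form of Tab1, held 93.9, 91.1 and 96.6%. Tab2-204 held 88.5, 88.2 and 88.9%, the most even share over libraries. Irak3-201 held 89.9, 80.2 and 93.8%, and in replicate 2 another 15.02% of the Irak3 TPM lay on retained-intron transcripts, which held 0% in replicates 1 and 3. The alignment-based share of retained introns in Irak3 was 3.35% in replicate 2 and 0% in the others.

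Irak4-201 held 81.7, 77.2 and 85.7% of the TPM of Irak4. The rest was mainly Irak4-203, a retained-intron form, at 16.0, 19.8 and 12.6% in the alignment-free tables but 0, 6.70 and 0% in the alignment-based ones. The coding form thus led in every library in both, and the retained-intron form was highest in replicate 2 in both.

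Irak1 had the most annotated transcripts of the 10 genes, 22. Irak1-206 held 32.2, 33.3 and 41.2%, Irak1-204 held 19.7, 23.0 and 11.9%, and Irak1-201 held 11.6, 11.5 and 10.03%. Transcripts that retain an intron held 17.5, 18.3 and 14.7%. In the alignment-based tables Irak1-206 stood at a mean of 45.8% ± 2.42 (SD, n = 3) and Irak1-201 stood at 5.11% ± 0.447.

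Irak2-201 held 57.3, 55.4 and 72.8% of the TPM of Irak2, and no other transcript reached a mean of 10%. Retained-intron transcripts held 21.3, 25.3 and 12.8%, and all noncoding forms together held 35.0, 39.0 and 19.3%. Replicate 3 therefore differed from the other libraries by more than those differed from each other. By estimated counts, which do not divide by length, Irak2-201 held 83.0% ± 3.03.

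Traf3-201 held 41.3, 49.2 and 48.9% of the TPM of Traf3, while Traf3-204, an incomplete fragment of 645 bases, held 39.8, 36.9 and 36.1%. By alignment-based TPM Traf3-204 held 31.2, 27.5 and 28.3%. That fragment rested on 93.7, 59.5 and 60.7 estimated counts, 4.30% of the reads of Traf3, against 1594.7, 1239.3 and 1247.5 for Traf3-201. The retained-intron form Traf3-205 held 15.7, 10.5 and 8.10% in the alignment-free tables and 0% in all 3 alignment-based ones.

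Map3k7 was divided between a pair of coding forms. Map3k7-202 held 30.8, 24.2 and 39.0% and Map3k7-201 held 27.9, 33.4 and 28.5%, so that Map3k7-202 led in 2 of the 3 libraries and Map3k7-201 in replicate 2. The noncoding form Map3k7-209, of 821 bases, held 23.2, 24.3 and 20.7% from 126.0, 116.2 and 85.0 estimated counts. In the alignment-based tables Map3k7-202 led in every library, at 61.5, 56.7 and 72.9%, and Map3k7-209 held 2.96, 2.58 and 0%.

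Tab3-201 held 70.2, 70.8 and 66.7% of the TPM of Tab3. The remainder was on short forms with almost no reads: Tab3-204, of 360 bases, held 14.7, 16.6 and 24.7% from 5.4, 5.2 and 9.1 estimated counts, and Tab3-203, of 385 bases, held 13.1, 12.6 and 8.61% from 5.5, 4.5 and 3.6. In the alignment-based tables Tab3-204 held 13.0, 15.5 and 23.2% and Tab3-203 held 11.1, 13.7 and 0%. By estimated counts Tab3-201 held 98.7% ± 0.161 (SD, n = 3).

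Over all transcripts, the protein-coding share of the alignment-free TPM was lowest for Map3k7, at 58.7, 57.6 and 67.4%, and for Irak2, at 65.0, 61.0 and 80.7%. It was highest for Tab2, at 98.7, 95.8 and 100%. The median over 8434 detected protein-coding genes was 95.2, 91.7 and 95.9% in the 3 libraries, and the mean share of Irak1, at 82.8%, Irak4, at 83.8%, and Tab3, at 81.3%, also lay well below it. In the alignment-based tables the order differed: Tab3 was lowest at 82.8% ± 5.27, followed by Irak2 at 85.3% ± 4.35, Irak1 at 87.4% ± 0.911, Traf6 at 91.7% ± 2.92 and Map3k7 at 91.9% ± 6.05 (SD, n = 3). The median of the mean shares over the same 8434 genes was 96.6% there. By estimated counts, which do not divide by length, the mean coding share was 99.3% for Tab3 and 94.1% for Map3k7. It was 93.5% for Irak4, 91.1% for Irak2 and 87.4% for Irak1. No median over all genes was taken on that scale.

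Replicate 2 had the lowest coding share in 8 of the 10 genes, beside 67.4% of detected genes whose share varied. In the alignment-based tables it had the lowest in 7 of the 9 genes whose share varied, beside 59.6%, and Traf3 was at 100% in every library. Incomplete fragments annotated as protein-coding count as coding in these shares. Of the Traf3 TPM, 31.2, 27.5 and 28.3% lay on the incomplete Traf3-204. Replicate 2 also held the most Malat1, at 1144 TPM, and the most Neat1, at 106.5 TPM against 32.4 and 37.3, both of which are nuclear transcripts. The part of nuclear RNA in these shares was not tested.

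**Figure D4:**
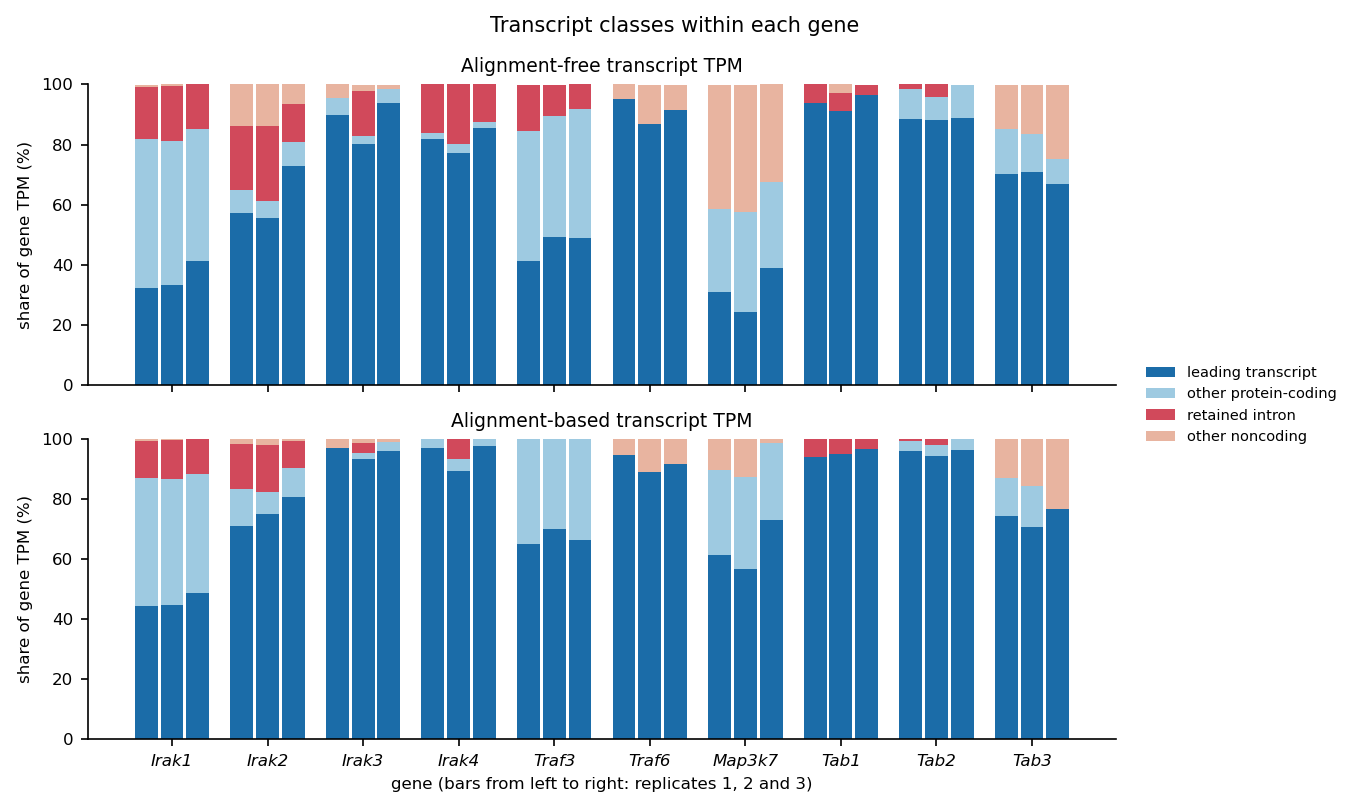
Share of each gene's TPM on its most abundant transcript, other protein-coding transcripts, retained-intron transcripts and other noncoding transcripts, with a bar for each of replicates 1, 2 and 3 from left to right. The upper panel shows the alignment-free tables and the lower panel the alignment-based ones, where the noncoding part of Map3k7 is much smaller and that of Traf3 is 0.

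The coding forms differ in a few whole exons, and these are the sequences that separate them. All 91 internal coding exons of the 10 genes were scanned for exons used in some basic coding transcripts and skipped in others, with at least 1% of the gene's TPM on each form. The scan found 5 such exons in 4 genes, and each has a length that keeps the reading frame. The scan was made after transcript values had been seen. Each exon is printed in capitals between 15 bases of the neighbouring exons, as spliced.
Irak1 exon 12: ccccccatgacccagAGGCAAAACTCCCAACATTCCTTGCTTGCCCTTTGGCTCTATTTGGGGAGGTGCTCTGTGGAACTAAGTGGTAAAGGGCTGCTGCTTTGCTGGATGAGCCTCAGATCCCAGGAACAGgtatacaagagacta
Irak2 exon 2: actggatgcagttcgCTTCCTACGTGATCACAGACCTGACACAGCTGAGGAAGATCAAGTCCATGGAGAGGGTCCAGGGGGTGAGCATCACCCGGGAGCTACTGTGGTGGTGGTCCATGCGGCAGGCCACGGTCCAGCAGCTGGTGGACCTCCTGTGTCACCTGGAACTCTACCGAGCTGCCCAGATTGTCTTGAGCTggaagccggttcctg
Irak2 exon 3: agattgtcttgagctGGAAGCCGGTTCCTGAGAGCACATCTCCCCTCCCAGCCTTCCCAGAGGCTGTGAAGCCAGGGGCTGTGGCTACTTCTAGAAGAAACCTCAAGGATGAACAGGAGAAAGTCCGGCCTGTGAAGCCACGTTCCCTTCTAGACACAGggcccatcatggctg
Traf3 exon 8: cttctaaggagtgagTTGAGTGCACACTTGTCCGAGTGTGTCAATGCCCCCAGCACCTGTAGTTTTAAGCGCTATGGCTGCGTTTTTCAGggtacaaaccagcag
Map3k7 exon 12: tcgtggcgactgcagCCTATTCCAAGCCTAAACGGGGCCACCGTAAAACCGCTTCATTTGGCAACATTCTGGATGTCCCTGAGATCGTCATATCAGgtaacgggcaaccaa

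Exon 12 of Map3k7-201 (chr4:31994874-31994954, plus strand, 81 bases, 27 codons) is the exon that separates the TAK1 forms known as a and b, and it was the most evenly used of the 5. Forms with it held 47.5, 58.0 and 42.2% of the TPM of coding forms in the alignment-free tables, a mean of 49.2% ± 8.02 (SD, n = 3). The alignment-based tables gave 31.5, 35.1 and 26.2%, a mean of 30.9% ± 4.46. The ranges of the quantifications did not overlap, and replicate 2 was the highest and replicate 3 the lowest in both.

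Exon 12 of Irak1-201 (chrX:74017901-74018017, minus strand, 117 bases, 39 codons) was skipped in most Irak1 forms. Among coding forms with the same neighbouring exon edges, those with exon 12 held 17.6, 16.9 and 15.2% of the alignment-free TPM. The alignment-based shares were 6.64, 7.18 and 5.95%. The spread over libraries was small in each, with SDs of 1.25 and 0.618 percentage points, and the quantifications did not overlap.

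The other alternative exons were in forms that held most of the TPM of coding forms with the same neighbouring exon edges. Incomplete fragments and noncoding forms were left out of these shares. Exon 8 of Traf3-201 (chr12:111251130-111251204, plus strand, 75 bases, 25 codons) was in forms that held 92.7, 93.5 and 87.7%, and 94.4, 96.6 and 92.5% in the alignment-based tables. Exon 3 of Irak2-201 (chr6:113665703-113665846, plus strand, 144 bases, 48 codons) was included at 89.0, 92.6 and 92.7%, and at 85.2, 91.2 and 89.3% in the alignment-based tables. Exon 2 of Irak2-201 (chr6:113647639-113647821, plus strand, 183 bases, 61 codons) was included at 98.9, 97.9 and 97.0%, and the alignment-based tables put none of the TPM on the form that skips it.

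The coding sequences of the most abundant pair of Irak1 transcripts, of 2133 and 2130 bases, differ in length by the start of 1 exon. Exon 5 begins 3 bases earlier in Irak1-206 than in Irak1-204, which adds 1 codon, printed in capitals.
Irak1-206: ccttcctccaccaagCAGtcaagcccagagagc
Irak1-204: ccttcctccaccaagtcaagcccagagagc
Of the TPM of basic coding forms, those with the earlier start held 62.0, 63.1 and 67.6% in the alignment-free tables. In the alignment-based ones they held 63.7, 65.2 and 68.3%. Here the quantifications overlapped, with means of 64.2% ± 3.02 and 65.7% ± 2.34 (SD, n = 3), and replicate 3 was the highest in both.

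**Figure D5:**
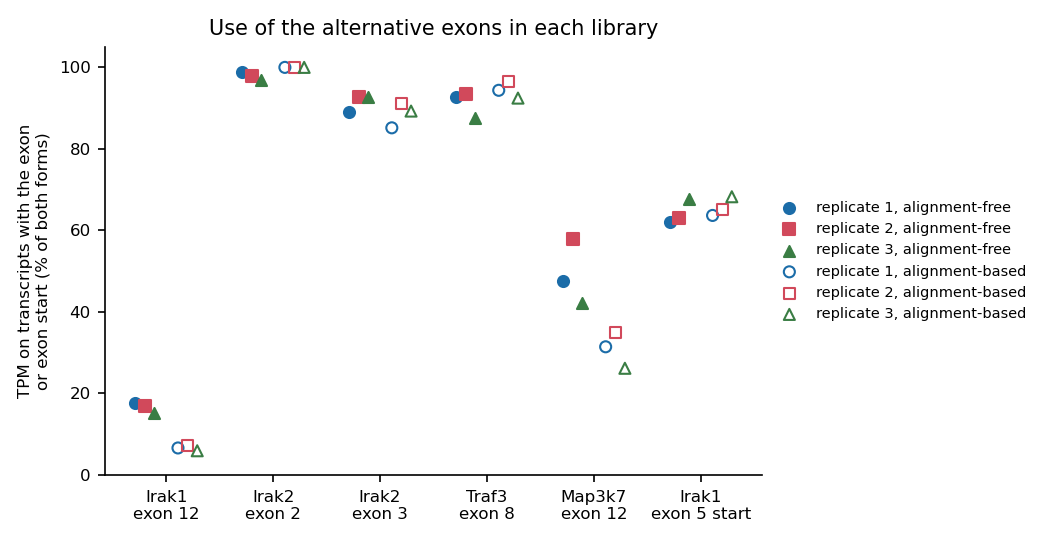
Percent of TPM on coding transcripts with each alternative exon, or with the earlier start of Irak1 exon 5, out of both forms, with filled symbols for the alignment-free and open symbols for the alignment-based tables. Irak1 exon 12 and Map3k7 exon 12 are lower in the alignment-based tables in every library, and Irak1 exon 5 overlaps between the tables.

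Around these 10 genes, 47 other genes of the pathway were listed by role and all were matched, of which 40 were detected. The receptor and its adaptors were all detected, 7 of 7, led by Cd14, the lipopolysaccharide co-receptor, at 184.7 TPM and Tlr4 at 28.5 TPM (means). Of the partners and regulators of IRAK and TRAF proteins, 7 of 12 were detected. The highest were Tifa, a TRAF6-binding adaptor, at 30.4 TPM and Tollip, which binds IRAK1, at 20.5 TPM. Both were above every IRAK gene in mean TPM, and Tifa was also above Tab2. Not detected were Peli3, an IRAK-binding ligase of the Pellino family, at 0.450 TPM, the receptor inhibitor Sigirr at 0.490, Traf3ip1 at 0.793, Traf3ip2 at 0.593 and Irak1bp1, which was below 1 TPM in replicate 2 alone.

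Other TRAF genes were detected in 4 of 5 cases, with Traf7 at 10.5 TPM above both Traf6 and Traf3 and Traf5 at 4.41 TPM between them. Traf4 was not detected, at 0.09 TPM from 10, 21 and 9 expected counts. All 8 ubiquitin enzymes were detected, led by Ube2v1 at 40.6 TPM and Ube2n at 29.4 TPM, the conjugating pair that works with TRAF6. All 5 deubiquitinases and A20 partners were detected, with Tnfaip3, which encodes A20, at 51.3 TPM and Usp4 at 19.2 TPM. Of the kinases fed by TAK1 and by TRAF3, 9 of 10 were detected, led by Ikbke at 21.4 TPM and Tbk1 at 16.5 TPM. Map2k6 missed the limit of 1 TPM, at a mean of 0.827 TPM from 146, 101 and 113 expected counts.

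Between libraries, 4 of the 45 listed genes that averaged at least 100 counts passed 1.5-fold, beside 9.31% of all genes at that depth and 0 of the 10. These 4, named after their values were seen, were Tnfaip3, Peli2, Irak1bp1 and Birc3. Tnfaip3, the feedback inhibitor that trims TRAF6-built chains, was at 238.7, 276.8 and 460.6 CPM, 1.93-fold higher in replicate 3 than in replicate 1. Birc3, a ubiquitin ligase of the same pathway, was also highest in replicate 3, at 36.3, 34.3 and 54.8 CPM. Peli2, at 48.2, 32.6 and 55.5 CPM, and Irak1bp1, at 4.06, 2.53 and 3.48 CPM, were lowest in replicate 2. By the same CPM, the IRAK, TRAF and TAK1 genes stayed within 1.25-fold. Both counts, 4 of 45 and 0 of 10, lie near the background of 9.31% and are read no further.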

How the data were processed

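Macrophage cytosolic RNA was sequenced in 3 libraries of 1 group. Per the file headers, the authors deposited gene and transcript tables in the columns RSEM writes, with expected counts and TPM, called alignment-based here, and transcript tables in the columns kallisto writes, with estimated counts and TPM, called alignment-free. The text record deposited with them names mm10 and GENCODE M21. Tool versions, and whether strand was used, were not given in the sources used here. Neither kind of count is normalized, and TPM is scaled over every row of a table.

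Gene levels are the deposited gene TPM. Rows that name no gene held 0.186, 0.167 and 0.0395% of the expected counts and were left out. Expected counts were rounded to whole numbers and scaled with TMM factors to log2 CPM (prior count 2) in edgeR 4.0.16 under R 4.3.3, over all 55536 genes, and this step was tested on simulated data. A mean count of 100 and a gap of 1.5-fold were used between libraries. With 1 group there is no test, spreads cover these libraries only and may be technical, and count floors cover counting error only. Transcript models and 3′ UTR sequences came from GENCODE M21, and Python 3.11.15 with pandas 2.3.3 did the rest.

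The 10 genes, the lists and the tests were chosen with earlier results of these data known. All 10 are named, with their transcripts of 10% or more mean share; of the other pathway genes, the 2 highest per role and every one not detected are named. Alternatives were other detection limits, the other quantification, rescaling over nuclear protein-coding genes, levels over protein-coding transcripts alone, and DESeq2 1.42.0 size factors or library size. Further ones were another prior count or count minimum, shares of counts, and each replicate left out. The exon shares, the order under rescaled alignment-free TPM and the order and gaps without each replicate were added after seeing the data.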

Additional observations from a re-analysis of the deposited data

How the results depend on the processing

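No paired analysis was possible because the 3 libraries form 1 group. At a limit of 5 TPM, 5 of the 10 genes were detected. The median level of the 10 genes, averaged over libraries, was 5.70 TPM, and became 2.18 with alignment-free TPM and 22.8 rescaled over protein-coding genes, since each scale has another denominator. Over protein-coding transcripts alone, 9 of the 10 levels stayed within 1 SD, and Tab3 moved from 2.37 to 1.95 TPM. The number of neighbouring pairs with separate ranges was 2, and became 1 with alignment-free TPM, 8 rescaled over protein-coding genes, 4 with rescaled alignment-free TPM, and 3 to 9 with 1 replicate left out (4 without replicate 1, 9 without replicate 3), where fewer libraries also narrow each range. The median share of the most abundant transcript was 76.4%, and became 84.1% with alignment-based TPM and 91.3% with estimated counts. The median protein-coding share was 85.8%, and became 94.4 and 95.8% in the same order; the cause was not tested. The median SD of log2 CPM was 0.11, and ran from 0.0603 (without replicate 2) to 0.127 with 1 replicate left out.

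By CPM, no gene of the 10 passed 1.5-fold with TMM factors, DESeq2 size factors or library size, with a prior count of 0.5, with a lower or no count minimum, or with a replicate left out. Gaps were wider by alignment-free TPM, with Traf3 at 2.28 in replicate 1 and 1.13 in replicate 2, and Tab2 at 9.81 and 5.59. All 10 genes were highest in replicate 1 on that scale, beside 98.1% of detected genes. Nuclear protein-coding genes took 10.7, 6.27 and 6.54% of the alignment-free TPM in replicates 1, 2 and 3. By CPM, 963 of 10348 genes passed 1.5-fold at a mean count of 100. The count was 2168 of 12466 at a mean count of 20 and 10214 of 55536 with no filter. Of the 6 exon shares, 5 moved beyond 1 SD with alignment-based TPM and 2 with estimated counts. Shares on short transcripts rest on few reads, as for Tab3-204, with 5.4, 5.2 and 9.1 estimated counts.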
